A study of Mus musculus with 6 samples.

Results

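The genes described here encode the lysosome's proton pump and a set of its enzymes and membrane proteins. They were chosen by name: every gene whose symbol begins with Atp6v or Atp6ap, together with 22 named hydrolases, lipid-handling proteins, membrane proteins and the transcription factor Tfeb. On the array 92 of 45037 probe sets carried a single such symbol, and they stood for 43 of 18193 genes, made up of 22 V-ATPase genes, 13 hydrolases and 8 others. The tetraspanin Cd63 was named in the rule but no probe set listed it alone, so it was not analysed here. The values come from primary dermal fibroblasts of B6 mice of both sexes, aged 0 to 2 days, grown out of dermal explants and used at passage 4. In 3 cultures the cytidine analogue 5-aza-2'-deoxycytidine (decitabine), which traps DNA methyltransferases once it is built into DNA, was given at 5 µM during 96 hours, freshly prepared every 24 hours, and the cells then spent 24 hours without it. The 3 control cultures were left untreated, and each culture was measured on 1 expression array.

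The vacuolar ATPase, or V-ATPase, is a rotary pump that drives protons into lysosomes, endosomes and secretory vesicles. Its peripheral V1 sector hydrolyses ATP and turns a rotor, and its membrane-embedded V0 sector passes the protons, so that the lumen becomes acid enough for the hydrolases to work. Cathepsins are the lysosome's proteases, and its glycosidases take sugars off glycoproteins, glycolipids and matrix polysaccharides. Many of these genes carry a short E-box, CACGTG, near the start site, to which the transcription factor TFEB and its relatives bind.

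Signals were MAS5 intensities scaled to a common trimmed mean, and a log2 change is treated minus control on the log2(signal + 9.66) scale. After scaling, the array medians lay between 51.4 and 60.6 signal units. The 12 fibroblast markers on the array were all tested, and 11 of them exceeded the median of every array. Of the 12 markers 10 fell, where 21.6% of all genes tested were called lower, and Vim and Twist2 were not called. The summed signal of the 12 was 26274 to 31787 in treated cultures, against 55434 to 63089 in controls. As a check on RNA quality, the Actb control probe sets at the 3' end gave 1.16 ± 0.019 times the signal of those at the 5' end in treated cultures, against 1.26 ± 0.010 times in controls (SD, n = 3 each). An exact two-sided permutation test gave p = 0.1, and 3 arrays against 3 cannot give less. The same ratio for Gapdh was 0.764 ± 0.024 in treated cultures and 0.739 ± 0.016 in controls, with overlapping arrays (exact permutation p = 0.2). The part of these measures in the changes of the members was not tested.

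After the drug 61.1% of the tested V-ATPase genes and 50% of the 12 tested hydrolases among the members rose. A gene was tested if its signal exceeded the array median on at least 3 of the 6 arrays, and it was called at an adjusted p under 0.05 by limma. Of the 43 genes, 37 were tested; 21 of them rose, 5 fell and 11 were not called, with a median log2 change of 0.39. Over all 12194 genes tested, 41.1% were called, 19.5% higher and 21.6% lower, and the median change was -0.0032. The members were chosen with earlier results of these data known, so this contrast with all genes is not independent evidence about them. Among the 18 tested V-ATPase genes 11 rose and 1 fell (median 0.57). Of the 12 tested hydrolases, all cathepsins or glycosidases, 6 rose and 2 fell (median 0.26). That share was not seen in lysosomal hydrolases outside the members. Of 29 others tested, 6 rose (20.7%) and 8 fell (27.6%), with a median of -0.06. Of the 7 tested lipid-handling and membrane genes 4 rose and 2 fell (median 0.31). A call with a change of at least 1.5-fold upward was made for 8 V-ATPase genes and 4 hydrolases, where the share over all genes was 11.7%. The treated arrays lay wholly above the controls for 23 of the 37 genes and wholly below for 6, where over all genes this held for 25.1% and 27.4%. The difference between the pump and the hydrolases was not tested.

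The members were mostly bright, and bright genes were called more often. Among the brightest 25% of all tested genes 31.1% were called higher and 25.5% lower. These bright genes included 13 of the V-ATPase genes, of which 10 rose and 0 fell, and 10 of the hydrolases, of which 5 rose and 2 fell. The arrays measured bulk RNA, so a change in the RNA per cell and a change in the share of cells that express a gene cannot be told apart.

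**Figure D1:**
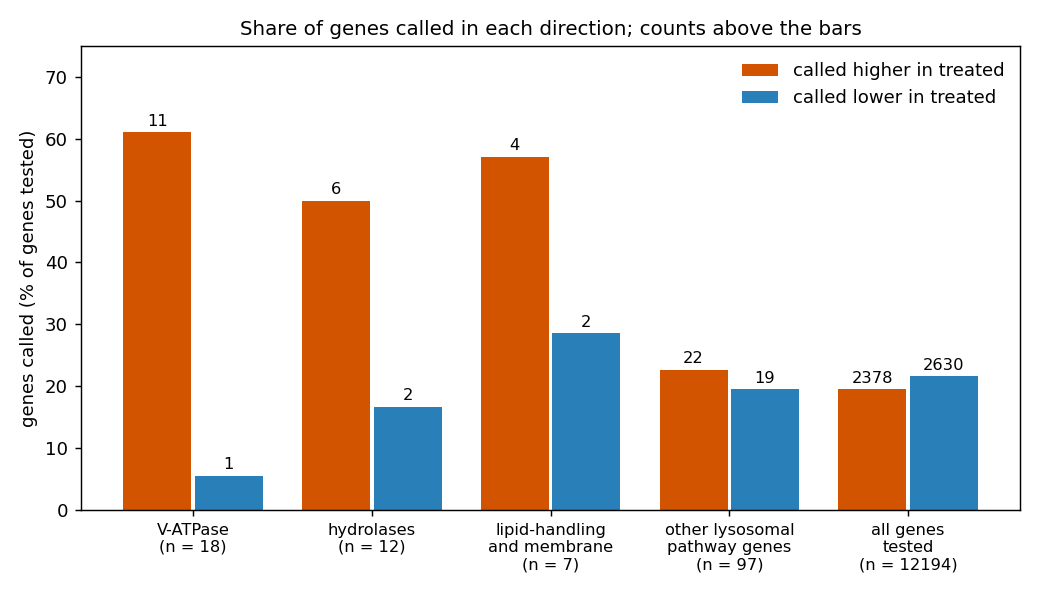
Percent of tested genes called higher (orange) or lower (blue) in treated cultures by limma at an adjusted p under 0.05, with the count above each bar. The V-ATPase genes, 11 higher and 1 lower of 18, stand beside 2378 higher and 2630 lower of all 12194 genes tested.

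**Figure D2:**
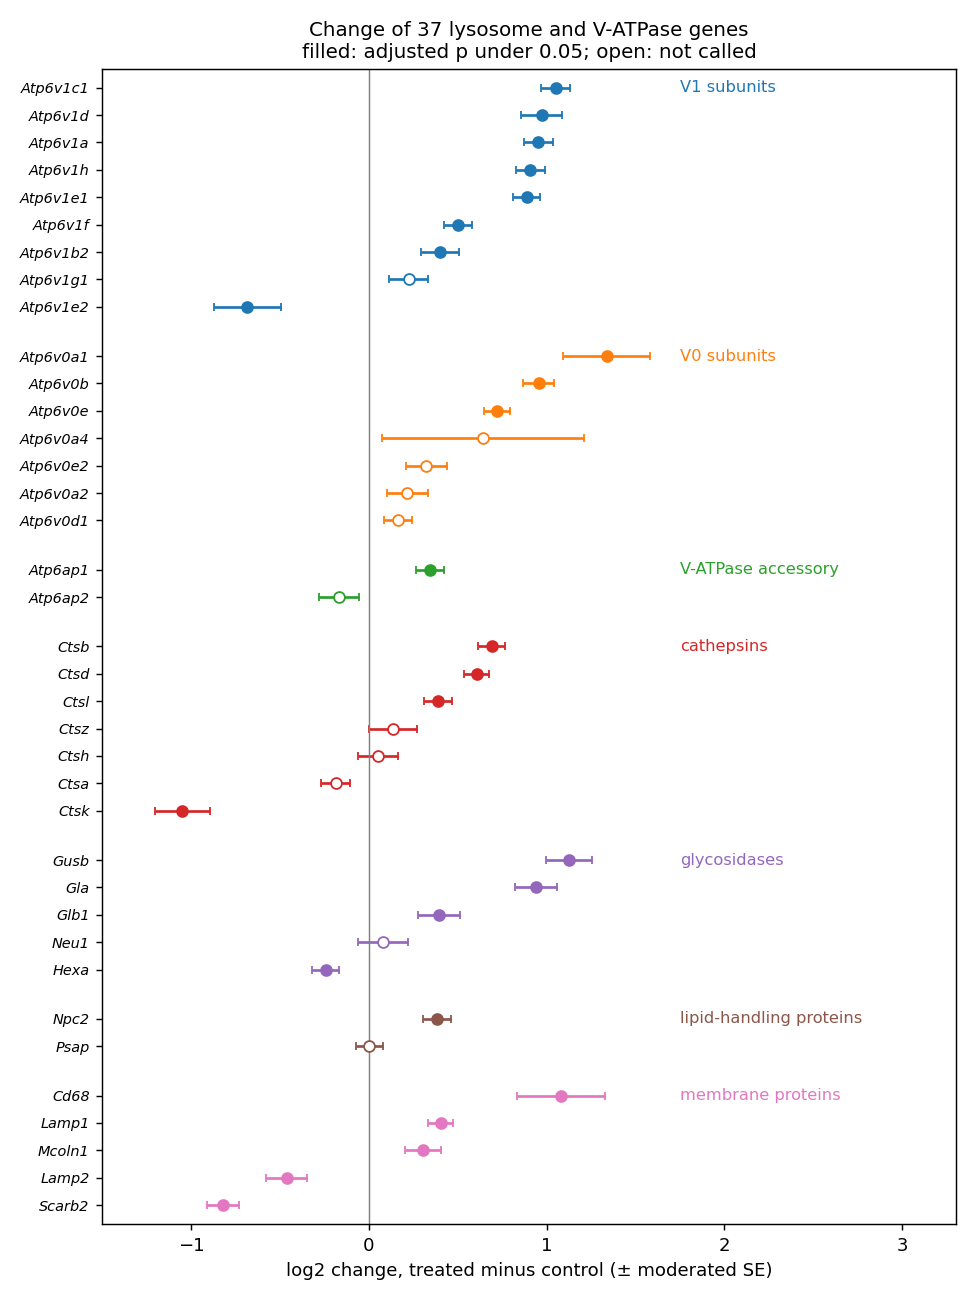
The log2 change of each of the 37 tested genes, treated minus control, with its moderated standard error; filled points passed an adjusted p of 0.05 and open points did not. The V1 subunits from Atp6v1c1 to Atp6v1e1 lie between 0.89 and 1.05, while Ctsk and Scarb2 lie at -1.05 and -0.82.

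The windows around the start sites of the members were searched for the E-box that TFEB-family factors bind. RefSeq promoter windows of the mouse build GRCm38.p6, each 250 bases before to 50 after a start site, were found for 35 of the 43 genes. The motif CACGTG reads the same on both strands, so a search of one strand covers both. It occurred in at least 1 window of 11 of the 35 genes, and in 11.6% of the genes tested on the array that had a window. Split by call, 9 of the 17 members that rose held it, 0 of the 5 that fell and 2 of the 8 that were tested and not called. Over all genes the shares were close together, with 12.2% of those called higher and 10.5% of those called lower holding it. The longer form TCACGTG, searched on both strands and always containing the shorter one, was found in 10 of the 35 members and in 6.84% of the tested genes with a window. A match is a string of letters and was not tested for binding, and the split by call was looked at after the calls were known. The windows of 4 members that rose are printed here to compare the number and spacing of the E-boxes, and that of Ctsk, which fell, as one without a match. Capitals mark CACGTG.
Atp6v0b, chr4:117887280-117887579, minus strand: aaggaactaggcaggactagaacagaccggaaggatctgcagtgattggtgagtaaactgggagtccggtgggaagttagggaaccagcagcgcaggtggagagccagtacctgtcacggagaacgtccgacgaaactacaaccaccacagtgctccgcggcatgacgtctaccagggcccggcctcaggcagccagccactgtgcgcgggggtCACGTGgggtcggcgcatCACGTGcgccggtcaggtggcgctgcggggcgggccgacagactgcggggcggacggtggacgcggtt
Atp6v1a, chr16:44139210-44139509, minus strand: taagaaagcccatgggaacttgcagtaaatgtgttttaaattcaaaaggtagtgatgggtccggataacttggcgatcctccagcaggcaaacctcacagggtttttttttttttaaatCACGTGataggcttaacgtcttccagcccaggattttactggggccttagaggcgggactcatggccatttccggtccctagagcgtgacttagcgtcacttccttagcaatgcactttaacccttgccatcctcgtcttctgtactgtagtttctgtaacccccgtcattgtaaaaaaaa
Lamp1, chr8:13158911-13159210, plus strand: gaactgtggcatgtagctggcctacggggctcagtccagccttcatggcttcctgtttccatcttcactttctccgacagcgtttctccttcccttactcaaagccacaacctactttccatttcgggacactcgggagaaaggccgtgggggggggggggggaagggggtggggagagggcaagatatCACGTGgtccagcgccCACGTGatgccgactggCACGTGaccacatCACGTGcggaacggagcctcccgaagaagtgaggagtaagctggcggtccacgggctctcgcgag
Ctsd, chr7:142387778-142388077, minus strand: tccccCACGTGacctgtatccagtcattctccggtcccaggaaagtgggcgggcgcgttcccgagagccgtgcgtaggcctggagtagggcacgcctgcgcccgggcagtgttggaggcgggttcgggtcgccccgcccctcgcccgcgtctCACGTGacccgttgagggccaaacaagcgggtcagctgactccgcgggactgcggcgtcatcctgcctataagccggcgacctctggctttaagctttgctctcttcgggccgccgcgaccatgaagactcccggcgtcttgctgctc
Ctsk, chr3:95498960-95499259, plus strand: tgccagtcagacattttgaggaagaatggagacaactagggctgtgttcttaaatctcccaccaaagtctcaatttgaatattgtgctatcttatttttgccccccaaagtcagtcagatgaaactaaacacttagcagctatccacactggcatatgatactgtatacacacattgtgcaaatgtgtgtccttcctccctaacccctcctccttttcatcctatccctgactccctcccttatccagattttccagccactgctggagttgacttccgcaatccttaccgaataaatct
Counted from 1 at the 5' end of the window, the E-boxes of Lamp1 begin at bases 190, 206, 223 and 236, a run of 4 just before the start site. The window of Atp6v0b holds 2, at bases 215 and 233, and that of Atp6v1a holds 1, at base 120. The 2 in the Ctsd window begin at bases 6 and 153. The windows of Mcoln1 and Gla, not shown, hold 2 each, and those of Atp6v0e, Glb1 and Ctsl hold 1 each. That of Atp6v0d1, which was not called, also holds 1. No match lay in the windows of Atp6v0a1, Gusb, Atp6v1d, Atp6v1e1, Atp6v1f, Atp6ap1, Npc2 and Cd68, which all rose. One of the windows of Ctsa, which was not called, holds 2. The number of CpG dinucleotides also varied widely, with 33 in the Ctsd window, 28 in that of Atp6v0b, 19 in that of Lamp1, 10 in that of Atp6v1a and 2 in that of Ctsk. The median was 14 over the members' windows and 20 over those of all genes tested. DNA methylation was not measured on these arrays.

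In the V1 sector 5 subunits of the catalytic head, stalks and regulatory parts rose together, by 1.85-fold to 2.07-fold at their brightest probe sets. Of 9 tested V1 genes 7 rose and 1 fell, with a median log2 change of 0.89. Atp6v1a encodes the catalytic subunit that hydrolyses ATP. Its signal was 2496, 2796 and 2375 in treated cultures 1 to 3, against 1299, 1291 and 1349 in controls 1 to 3. The groups lay far apart, and the log2 change of 0.95 ± 0.08 (SE; adjusted p = 2.11e-05) is a 1.94-fold rise; the second probe set gave 0.98.
Atp6v1c1, which holds V1 and V0 together and is released when the pump comes apart, had signals of 2784, 2428 and 2366 in treated cultures and 1212, 1234 and 1189 in controls. All treated arrays lay above all controls, with a log2 change of 1.05 ± 0.08 (adjusted p = 1.21e-05). Its other probe sets gave 0.52 and 1.02, and each passed the test.
Atp6v1e1 forms the outer stalk that keeps the head from turning. It read 2687, 2587 and 2455 in treated cultures, against 1333, 1414 and 1419 in controls (log2 change 0.89 ± 0.07; adjusted p = 1.73e-05). A dimmer probe set of the gene changed by 0.25 ± 0.18 and was not called (adjusted p = 0.311), with overlapping groups.
The regulatory subunit Atp6v1h, which silences ATP hydrolysis by free V1, had 1228, 1309 and 1336 in treated cultures and 666, 662 and 725 in controls. The lowest treated signal was well above the highest control (log2 change 0.91 ± 0.08; adjusted p = 2.67e-05). Atp6v1d belongs to the rotor shaft. Its values were 2493, 2094 and 2368 in treated cultures, against 1345, 1005 and 1195 in controls (log2 change 0.97 ± 0.11; adjusted p = 0.000149). The controls spread more widely for this gene than for the other 4 V1 genes above, and still did not reach the treated arrays. The other probe sets of Atp6v1d gave 0.77 and 0.61, and each passed the test.

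The other V1 subunits changed less. Atp6v1f, another rotor protein, rose by log2 0.50 ± 0.08 (adjusted p = 0.000889), and Atp6v1b2, the nucleotide-binding partner of the catalytic subunit, by 0.40 ± 0.11 (adjusted p = 0.0153). The call of Atp6v1b2 was lost without treated replicate 2 (adjusted p = 0.0534) or control replicate 2 (adjusted p = 0.053), though its second probe set gave 0.46 and passed. Atp6v1g1, of the outer stalk, changed by 0.22 ± 0.11 at its brightest probe set and was not called (adjusted p = 0.139); a second probe set gave 0.53 ± 0.08 and passed (adjusted p = 0.000593). Without treated replicate 2 the brightest one passed too (adjusted p = 0.0468).
The paralogues known from restricted tissues stayed dim. Atp6v1b1, an isoform of kidney and inner ear, lay below the median of all 6 arrays, with 30.2, 19.5 and 23.1 in treated cultures and 6.64, 12.6 and 9.87 in controls, and was not tested. Atp6v1c2 and the neuronal Atp6v1g2 were also below the median on every array and were not tested. Atp6v1e2, an isoform known from testis, was the V-ATPase gene that fell. It had 62.7, 52.9 and 52.5 in treated cultures, against 91.2, 101 and 95.4 in controls (log2 change -0.69 ± 0.19, adjusted p = 0.0171). Atp6v1e2 exceeded the array median on 4 of 6 arrays, all controls among them, and lay below it in treated cultures 2 and 3. Without control replicate 2 its call was lost (adjusted p = 0.0528).

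**Figure D3:**
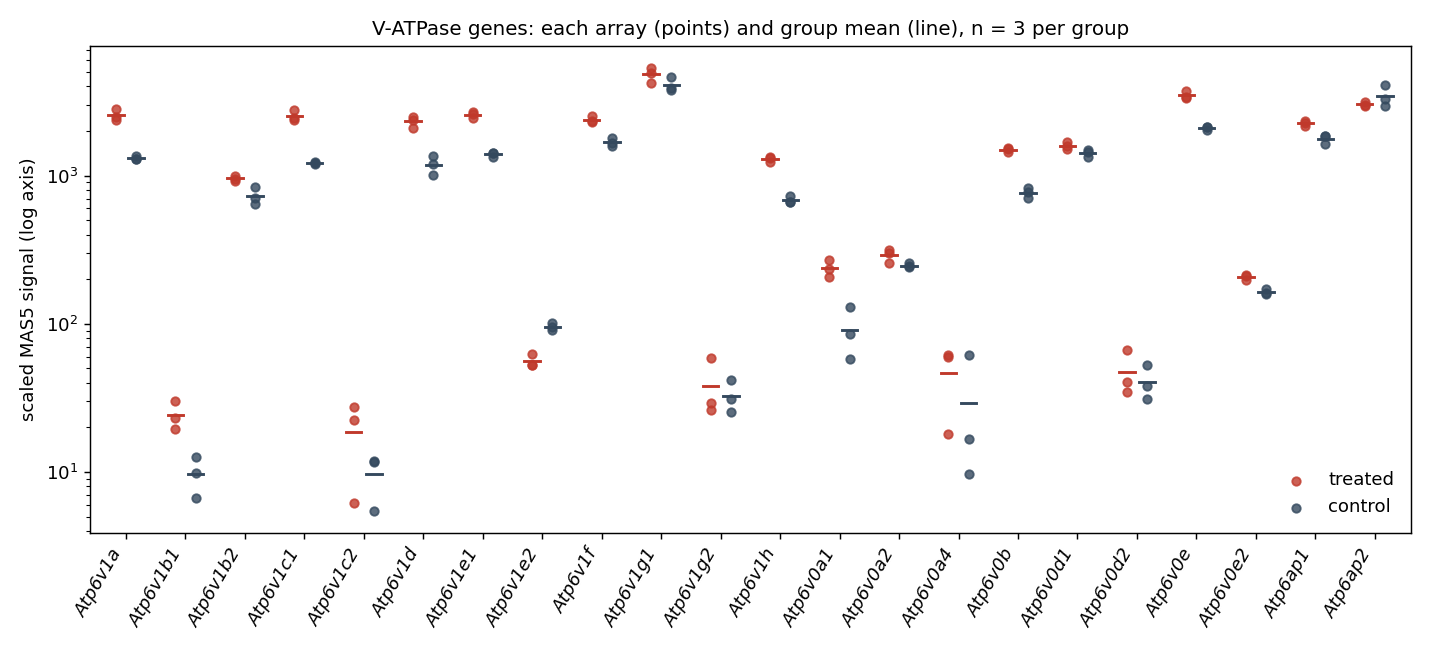
Scaled MAS5 signal of the 22 V-ATPase genes on a log axis; each point is 1 array, lines are group means (n = 3), and treated cultures (red) stand left of controls (dark). For Atp6v1a, Atp6v1c1, Atp6v1d, Atp6v1e1, Atp6v1h and Atp6v0b the groups are apart. Of the dim paralogues, Atp6v1c2, Atp6v1g2, Atp6v0a4 and Atp6v0d2 overlap. Treated cultures lie above controls for Atp6v1b1, which was not tested, and below them for Atp6v1e2.

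In the V0 sector 3 of 7 tested genes rose and 0 fell. Atp6v0b, a proteolipid of the rotating ring, had 1525, 1517 and 1432 in treated cultures and 819, 777 and 702 in controls. The groups were far apart (log2 change 0.95 ± 0.08, SE; adjusted p = 2.57e-05), and its 2 other probe sets rose by 0.67 and 1.15. Atp6v0e, a small membrane subunit, had 3703, 3385 and 3336 in treated cultures and 2135, 2132 and 2037 in controls. Replicates of each group were tight and the groups did not overlap (log2 change 0.72 ± 0.07; adjusted p = 6.15e-05).
Atp6v0a1 is one of the isoforms of the large subunit that forms the proton path. It read 234, 268 and 207 in treated cultures, against 86.0, 131 and 57.9 in controls. The rise was the largest among the tested V-ATPase genes and its standard error was exceeded by that of Atp6v0a4 (log2 change 1.34 ± 0.24; adjusted p = 0.002). Of its 3 dimmer probe sets, 2 rose by 0.84 and 0.87 and the last changed by -0.11 ± 0.23 without passing the test (adjusted p = 0.743).
The subunit that couples the ring to the rotor did not pass. Atp6v0d1 had 1594, 1674 and 1501 in treated cultures and 1331, 1446 and 1477 in controls. The treated arrays lay just above the controls, by log2 0.16 ± 0.08 (adjusted p = 0.142). Its paralogue Atp6v0d2, known from osteoclasts and kidney, exceeded the array median on 1 of 6 arrays and was not tested; its signals were 34.6, 66.4 and 40.8 in treated cultures and 31.1, 37.9 and 53.0 in controls, and they overlapped. Atp6v0e2, with 215, 209 and 198 in treated cultures and 161, 171 and 159 in controls, fell short of the threshold (log2 change 0.32 ± 0.12; adjusted p = 0.0517). It passed after quantile normalization (adjusted p = 0.0258) and without the intensity trend (adjusted p = 0.0379). Atp6v0a2 changed by 0.22 ± 0.11 (adjusted p = 0.165) and the kidney isoform Atp6v0a4 by 0.64 ± 0.57 (adjusted p = 0.413). For Atp6v0a2 all 3 probe sets pointed the same way and 0 passed.

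Of the accessory proteins 1 rose. Atp6ap1, which helps to assemble and guide the pump, had 2317, 2172 and 2271 in treated cultures and 1843, 1842 and 1639 in controls. The shift was small against the V1 genes but beyond the replicate spread (log2 change 0.34 ± 0.08; adjusted p = 0.00665). Atp6ap2, also known as the prorenin receptor, had 3155, 2979 and 2953 in treated cultures and 2944, 3265 and 4094 in controls. The groups overlapped and it was not called (log2 change -0.17 ± 0.11; adjusted p = 0.286), but after quantile normalization it was called lower by 0.29 (adjusted p = 0.0313). Of its 3 probe sets 2 pointed down and 1 up. With the deposited signals left unscaled, 8 V-ATPase genes were called higher and 0 lower; the rises of Atp6v1f, Atp6v1b2 and Atp6ap1 and the fall of Atp6v1e2 lost their calls.

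Of 7 tested cathepsins 3 rose (Ctsb, Ctsd and Ctsl), 1 fell (Ctsk) and 3 were not called. Ctsb, a cysteine protease, had 5734, 5053 and 5467 in treated cultures and 3337, 3487 and 3231 in controls. All 4 of its tested probe sets rose, by 0.68 to 1.00, and the brightest by log2 0.69 ± 0.08 (SE; adjusted p = 9.78e-05). Ctsd, the main aspartic protease, had 3228, 3068 and 3248 in treated cultures and 2021, 2068 and 2171 in controls. Its groups were tight and apart (log2 change 0.61 ± 0.07; adjusted p = 0.000139), and its promoter window is one of those printed above. Ctsl, another cysteine protease, read 8527, 7509 and 7984 in treated cultures, against 5939.7, 5827 and 6573 in controls (log2 change 0.39 ± 0.08; adjusted p = 0.0042).
Ctsk, a cysteine protease best known for cutting collagen in bone, went the other way. It had 1069, 778 and 1279 in treated cultures, against 2253, 1987 and 2141 in controls. Every treated array was far below every control, although the treated cultures spread widely (log2 change -1.05 ± 0.16; adjusted p = 0.000593). Of 7 markers of osteoclasts, cells known for high Ctsk, 3 lay below the median of all 6 arrays (Calcr, Ocstamp and Dcstamp), while Nfatc1 and Itgb3 exceeded it on all 6 and Tnfrsf11a on 5. Of the 3 that were tested 0 were called. The summed signal of those markers was 481 to 563 in treated cultures and 384 to 474 in controls, and their part in the values of Ctsk was not tested.
The remaining cathepsins were not called. Ctsa, a carboxypeptidase that also protects beta-galactosidase and neuraminidase, had 1042, 1135 and 1079 in treated cultures and 1269, 1298 and 1146 in controls. Its treated arrays lay just below the controls (log2 change -0.19 ± 0.08; adjusted p = 0.104). Ctsh, an aminopeptidase, changed by 0.05 ± 0.11 (adjusted p = 0.757), and Ctsz, a carboxypeptidase, by 0.13 ± 0.14 (adjusted p = 0.481). A dimmer probe set of Ctsz rose by 0.36 (adjusted p = 0.0103).
Ctss, a protease of antigen-presenting cells, was below the array median throughout and was not tested. Its signals were 43.4, 38.6 and 46.5 in treated cultures and 36.1, 47.0 and 46.3 in controls, with the groups overlapping.

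The 5 glycosidases among the members changed in both directions, and among these the called rises were larger than the called fall. Gusb, the beta-glucuronidase that acts on matrix polysaccharides, had 958, 866 and 921 in treated cultures and 505, 397 and 352 in controls. It more than doubled (log2 change 1.13 ± 0.13, SE; adjusted p = 0.000117), and its second probe set gave 1.12. Gla, the alpha-galactosidase missing in Fabry disease, had 568, 517 and 649.8 in treated cultures and 332, 284 and 273 in controls. The groups were well apart (log2 change 0.94 ± 0.12; adjusted p = 0.000226); its dimmer probe set gave 0.96 ± 0.37 and missed the threshold (adjusted p = 0.0644).
Glb1, whose product is the beta-galactosidase stained in senescent cells, had 676, 626 and 770.4 in treated cultures and 603, 485 and 483 in controls. The lowest treated array was only just above the highest control (log2 change 0.40 ± 0.12; adjusted p = 0.0247). Its call was lost without treated replicate 1 or 3, or control replicate 2 or 3, with adjusted p-values from 0.0591 to 0.0879. Hexa, a subunit of the hexosaminidase that degrades gangliosides, had 1456, 1559 and 1463 in treated cultures and 1745, 1697 and 1869.5 in controls. That fall was small (log2 change -0.24 ± 0.08; adjusted p = 0.0298), and the call was lost without treated replicate 1 or 3, or control replicate 1 or 3, with adjusted p-values from 0.0624 to 0.0856. Neu1, the lysosomal sialidase, had 140.1, 164 and 146 in treated cultures and 149, 152 and 124 in controls, and these overlapped (log2 change 0.08 ± 0.14; adjusted p = 0.703). Without scaling 4 hydrolases were called higher and 1 lower, as Ctsl, Glb1 and Hexa lost their calls.

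**Figure D4:**
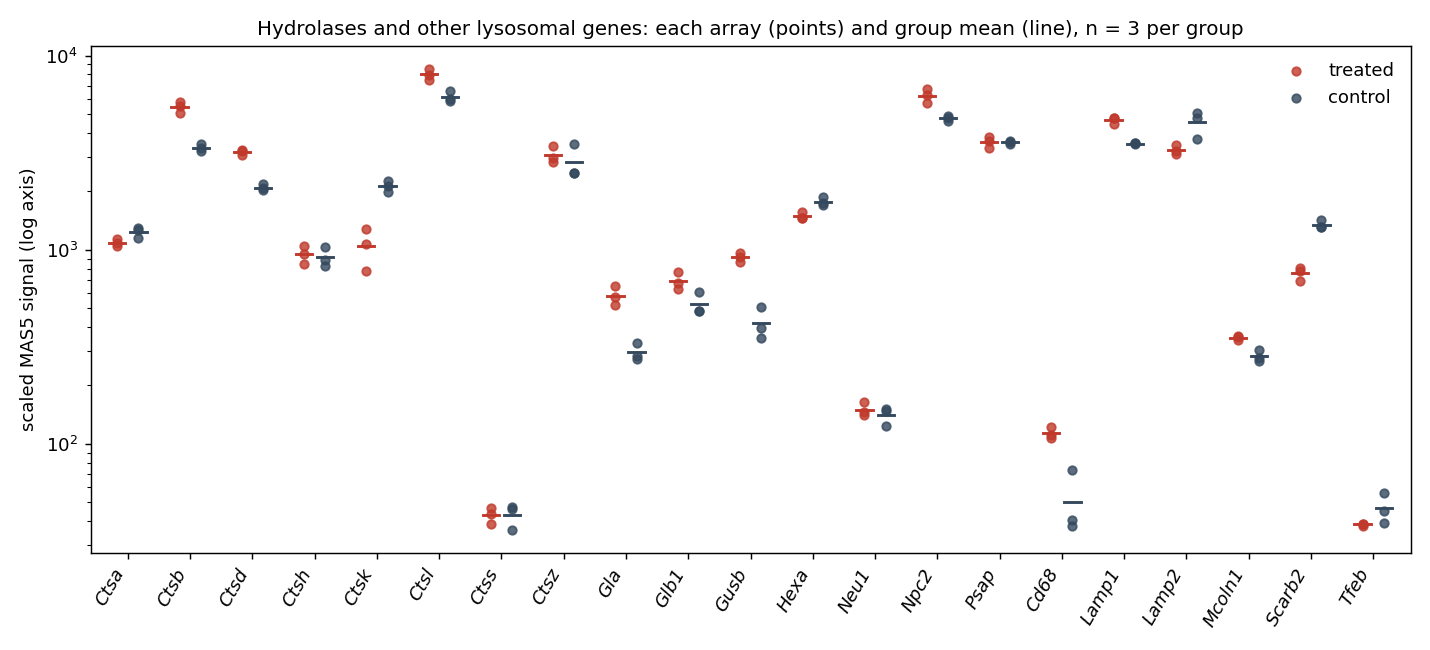
Scaled MAS5 signal of the 21 hydrolase, lipid-handling, membrane and regulator genes on a log axis; each point is 1 array, lines are group means (n = 3), and treated cultures (red) stand left of controls (dark). Treated cultures are above controls for Ctsb, Ctsd, Gla and Gusb and below them for Ctsk and Scarb2, and the groups overlap for Psap, Neu1 and Ctss.

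Both lipid-handling proteins were abundant, and 1 of them rose. Npc2, which hands cholesterol on inside the lysosome, had 6711, 6236 and 5672 in treated cultures and 4774, 4861 and 4618 in controls. The groups did not overlap (log2 change 0.38 ± 0.08, SE; adjusted p = 0.0044), a second probe set gave 0.33, and a dim one 1.06. Psap, the precursor of the saposins that help glycosidases to reach their lipids, had 3628, 3337 and 3785 in treated cultures and 3594, 3633 and 3489.9 in controls. Its change of 0.0028 ± 0.07 was not called (adjusted p = 0.981).

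The membrane proteins of the lysosome did not move together: 3 rose and 2 fell. Lamp1, a heavily glycosylated coat protein, had 4794, 4429 and 4777 in treated cultures and 3542, 3533 and 3496 in controls. The controls differed by little and all treated arrays were above them (log2 change 0.40 ± 0.07, SE; adjusted p = 0.00142). Its close relative Lamp2, needed for chaperone-mediated autophagy, had 3094, 3207 and 3476 in treated cultures and 3726, 4785 and 5079 in controls. It fell (log2 change -0.46 ± 0.11; adjusted p = 0.0104), opposite to Lamp1. All 4 probe sets of Lamp2 pointed down, by -0.16 to -0.84, and 2 of them passed. Scarb2, also called LIMP-2, carries glucocerebrosidase to the lysosome. It had 807, 689 and 781 in treated cultures, against 1307, 1303 and 1427 in controls (log2 change -0.82 ± 0.09; adjusted p = 8.8e-05). A second, similarly bright probe set of Scarb2 changed by 0.12 ± 0.08 and was not called (adjusted p = 0.287), so the fall rests on 1 of its probe sets.
Mcoln1, the calcium channel TRPML1, had 342, 358 and 353 in treated cultures and 305, 267 and 276 in controls. The rise was small (log2 change 0.31 ± 0.10; adjusted p = 0.0368) and lost its call on leaving out any array except control replicate 1, with adjusted p-values from 0.0744 to 0.105. Cd68, a lysosomal glycoprotein best known from macrophages, had 107, 121 and 111 in treated cultures and 37.7, 73.4 and 40.3 in controls. Controls 1 and 3 lay below the array median and control 2 just above it, and all treated arrays were higher (log2 change 1.08 ± 0.25; adjusted p = 0.00703).
Macrophage markers stood beside Cd68 as follows. Of 16 on the array 8 were tested and 1 rose, the tetraspanin Cd53, with 375, 287 and 570.5 in treated cultures and 122, 119 and 117 in controls (log2 change 1.65 ± 0.21; adjusted p = 0.000251). The summed signal of the 16 was 1547 to 1925 in treated cultures and 1167 to 1288 in controls. That sum includes Cd53, whose own mean was 411 in treated cultures and 119 in controls. Among the tested markers without a call, Fcer1g lay wholly above the controls in treated cultures (log2 change 0.69 ± 0.25). Spi1 and Laptm5 lay wholly below them (-0.45 ± 0.21 and -0.34 ± 0.14). Of the 16 markers, 7 lay below the median of all 6 arrays (Ptprc, Itgam, Aif1, C1qa, C1qb, C1qc and Fcgr3) and 6 above it on all of them (Csf1r, Adgre1, Cd14, Lyz2, Laptm5 and Cd53). Csf1r, the brightest of these after Cd53 in treated cultures, averaged 383 in treated cultures and 305 in controls and was not called (adjusted p = 0.0974). Their part in the rise of Cd68 was not tested.
Tfeb itself, the transcription factor whose family binds the E-box searched above, exceeded the array median on 1 of 6 arrays and was not tested. Its signals were 38.8, 38.9 and 37.8 in treated cultures and 39.1, 45.3 and 56.0 in controls, the treated ones just below the controls and all of them dim. With the deposited signals left unscaled, 1 of the lipid-handling and membrane genes was called higher and 2 lower, as Npc2, Lamp1 and Mcoln1 lost their calls.

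Many members were measured by several probe sets. Of the 22 genes with more than 1 tested probe set, 14 gave the same call with each of them, and in 0 were probe sets called in opposite directions. Counted by probe set, 39 of the 72 tested rose and 6 fell, where 18.4% and 20.3% of all tested probe sets did.

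**Figure D5:**
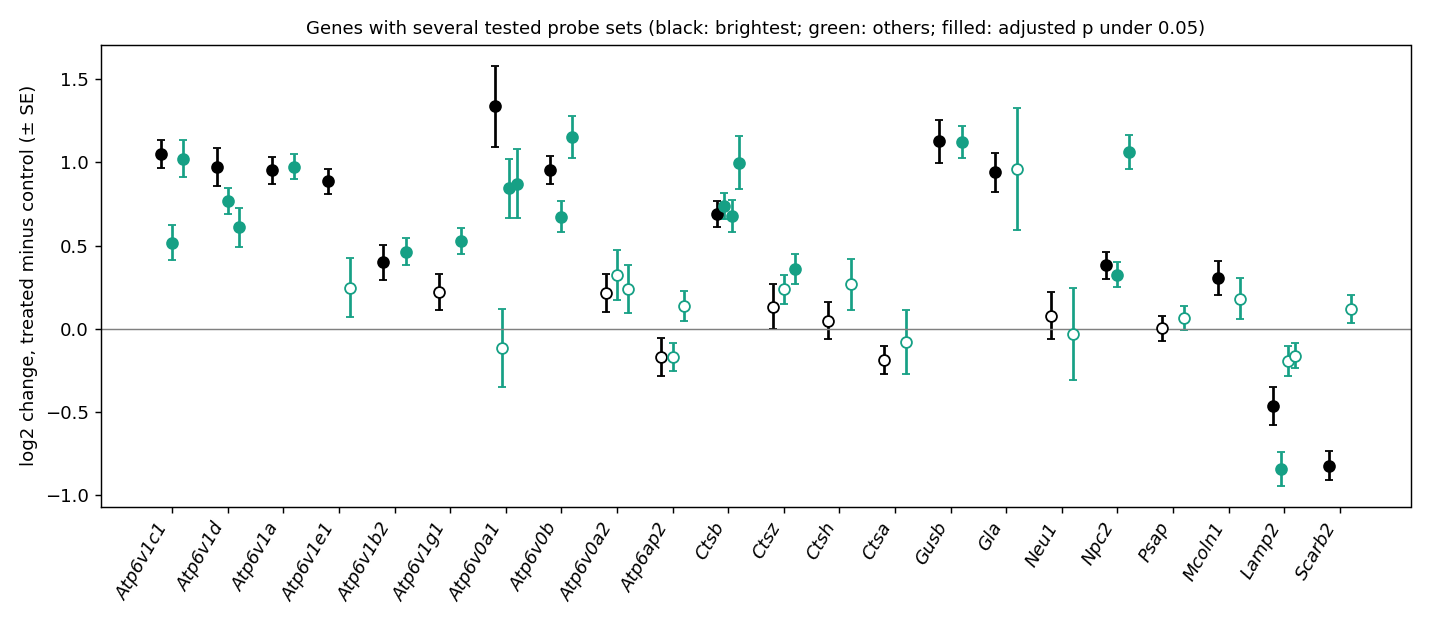
The log2 change, treated minus control, with its standard error for the 57 tested probe sets of the 22 genes that had more than 1; black marks the brightest probe set of a gene, green the others, and filled points passed an adjusted p of 0.05. In 0 genes were probe sets called in opposite directions, and in 4 genes the probe sets had changes of opposite sign.

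Other genes of the pathway, 111 named in 6 lists, were called in either direction at similar rates. The arrays held 100 of them and 97 were tested, of which 22 rose and 19 fell, with a median log2 change of 0.02; these shares, 22.7% and 19.6%, are near those over all genes. Among 29 other lysosomal hydrolases 6 rose and 8 fell. Galc, which degrades the myelin lipid galactosylceramide, rose by 1.22 ± 0.16, Aga by 0.81 ± 0.12 and the phospholipase Pla2g15 by 0.67 ± 0.11. The acid nuclease Dnase2a changed by -1.08 ± 0.15, arylsulfatase Arsa by -0.87 ± 0.10 and Naglu, of heparan sulfate breakdown, by -0.69 ± 0.14. All 6 of these passed the test, with adjusted p-values from 0.000113 to 0.00398.
Of 20 other membrane proteins and transporters 3 rose and 1 fell. The rises were in Ostm1, a partner of the lysosomal chloride transporter (1.16 ± 0.14), Tmem192 (0.81 ± 0.09) and Cln3, the gene of juvenile Batten disease (0.78 ± 0.27). Cln3 was dim, with 86.8, 66.6 and 104 in treated cultures and 31.2, 53.3 and 55.1 in controls (adjusted p = 0.0451). It exceeded the array median on 4 of 6 arrays, every treated one among them. The tetraspanin Cd9 changed by -0.29 ± 0.08.
Of 18 genes that deliver cargo to lysosomes 3 rose and 4 fell. The receptors that carry hydrolases by their mannose 6-phosphate tag went opposite ways, with M6pr at 0.47 ± 0.10 (adjusted p = 0.00378) and Igf2r at -0.98 ± 0.08 (adjusted p = 1.79e-05). Rab7, the GTPase of late endosomes, rose by 0.83 ± 0.08, and the adaptor Gga2 changed by -0.71 ± 0.12. Vps11 and Vps18, partners in the tethering complex of late endosomes and lysosomes, changed by 0.64 ± 0.16 and -0.38 ± 0.12, and both passed.
Of 18 regulators 6 rose and 4 fell. Sqstm1, the autophagy receptor p62, rose by 1.20 ± 0.08, the GTPase Rragd of the mTORC1 pathway by 0.90 ± 0.25 and the glycoprotein Gpnmb by 0.69 ± 0.11. The subunits of the Ragulator complex were called in both directions: Lamtor4, Lamtor1 and Lamtor2 fell, with changes of -0.58 ± 0.17, -0.44 ± 0.10 and -0.28 ± 0.09, Lamtor5 rose by 0.51 ± 0.10 (adjusted p = 0.00257), and Lamtor3 was not called (-0.16 ± 0.10). Fnip1, a folliculin partner, changed by -0.49 ± 0.12.
Of 3 tested cathepsin inhibitors 2 rose, the cystatins Cst6 (1.73 ± 0.36) and Cstb (0.79 ± 0.08), and Cst3 changed by -0.27 ± 0.07 and was called lower. Of 9 genes of V-ATPase assembly 2 rose and 1 fell. Tmem199 and Vma21, assembly factors of the V0 sector, rose by 1.505 ± 0.12 and 0.43 ± 0.08, and Ncoa7, which binds the pump, changed by -0.54 ± 0.13.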

How the data were processed

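RNA of 6 cultures was measured on Affymetrix mouse arrays, 1 array per culture. The deposited values are MAS5 signal intensities on a linear scale, per the submitters' processing notes; these name no MAS5 version. Each array was rescaled so that its trimmed mean, leaving out 2% at each end and the control probe sets, equalled 193.2. Probe sets above the array median on at least 3 of 6 arrays (23388) were tested on log2(signal + 9.66) with limma 3.58.1 in R 4.3.3 (lmFit, eBayes with an intensity trend), with Benjamini-Hochberg adjustment over all of them. A gene took its brightest tested probe set, and probe sets listing several genes were left out. Within a class the genes described in full were the 5 with the smallest p, all in small classes, and Ctss, Tfeb and Atp6v0d2 whatever their values; in the lists of other pathway genes, up to 3 called in each direction. The members and lists were chosen with earlier results of these data known. The code was tested on simulated data. The comparison with the brightest genes was added after the data were seen. The labels describe explants derived separately per replicate, but not whether treated and control cultures of the same number share one. The p-values measure only the spread between these cultures. The number of arrays limits the precision. Promoter windows came from RefSeq, GRCm38.p6. Alternatives were quantile normalization, no scaling, other pseudocounts and filters, no trend, a replicate block, each probe set, the probe set with the smallest p and leaving out each array.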

Additional observations from a re-analysis of the deposited data

How the results depend on the processing

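Of the 26 members called, 16 kept their call in all 15 alternative settings. With no scaling the members gave 13 higher and 3 lower, V-ATPase genes 0 lower, hydrolases 1 lower, lipid-handling and membrane genes 1 higher, other pathway genes 9 higher and 5 lower, and all genes 1088 higher and 1646 lower; the cause was not tested. With each probe set counted on its own, which enlarges the lists, 39 members, 22 V-ATPase, 11 hydrolase and 35 other pathway probe sets were higher, and 3877 higher and 4391 lower over all genes. Without the intensity trend 1 hydrolase was lower, and Glb1, Hexa and Mcoln1 lost their calls; after quantile normalization 2 V-ATPase genes were lower. Leaving out each array in turn gave 10 to 11 V-ATPase genes higher and 0 to 1 lower, 5 to 6 hydrolases higher and 1 to 2 lower, 18 to 21 members higher and 4 to 5 lower, 17 to 22 other pathway genes higher and 13 to 19 lower, and 1993 to 2169 genes higher and 2188 to 2336 lower over all. Changes near 0 turned sign: Ctsh to -0.025 without scaling, Psap to -0.12 after quantile normalization and -0.073 without scaling, the median of all genes to 0.013 after quantile normalization and 0.016 without the filter, and the median of other pathway genes to -0.055 without scaling. With each array left out in turn Ctsh ranged from -0.024 to 0.139, Neu1 from -0.0073 to 0.131, Psap from -0.038 to 0.053 and the median of all genes from -0.018 to 0.014. The labels do not say whether same-numbered cultures share an explant. Deviations of same-numbered arrays correlated at 0.186, 0.172 and 0.072 and those of differently numbered arrays at -0.149 to -0.022, so every array correlated best with its own number, a hint of pairing from the data. Because 1 of the 3 correlations was not over 0.1, the limit used, the numbers were not taken as pairs. With the replicate number as a block, 11 V-ATPase genes were higher and 1 lower, 6 hydrolases higher and 2 lower, and 2510 genes higher and 2752 lower over all.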
